A study of Mus musculus with 20 samples.

Results

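The 46 genes described here act in the cell cycle and in DNA replication, and each was taken from the deposited table by its gene symbol. They are 46 of the 27179 genes in the table. All 46 passed the filter on low values, a mean over the 20 libraries of 10 or more normalized reads, as did 13057 genes in all. By role, 8 act at the passage from G1 into S phase, 15 in DNA replication and nucleotide supply, and 23 in G2, mitosis and cytokinesis. The filter was passed only through DPP4+ cells by 7 mitosis genes, Ccnb1, Cdk1, Ube2c, Aurka, Aurkb, Bub1 and Kif23, whose means over the DPP4- libraries were 4.24 to 7.07 normalized reads.

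Inguinal white fat of male C57BL/6 mice was the source of the cells, which were sorted as PDGFRb+ and divided by the surface protein DPP4. The 4 groups were DPP4+ cells of mice held at 6 °C for 24 h, DPP4+ cells of mice at 22 °C, DPP4- cells of mice held at 6 °C for 24 h and DPP4- cells of mice at 22 °C, with 5 RNA-seq libraries each. No transgene or other treatment is named. The age of the mice, and whether a library came from 1 animal or from a pool, are not given in the sources used here, so p-values measure the spread between these libraries, which may be technical.

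A cell that divides must first pass from G1 into S phase, which cyclins D and E and their kinases bring about by freeing E2F transcription factors from the retinoblastoma protein. E2F then drives the genes that license replication origins, copy DNA and supply deoxynucleotides. Later, cyclin B with Cdk1, the aurora and polo kinases and the spindle proteins carry the cell through mitosis, and the anaphase-promoting complex marks cyclins and other mitotic proteins for destruction. In white fat of mice, DPP4+ cells are known as an interstitial progenitor population that can give rise to DPP4- preadipocytes.

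The sort was visible in its own marker. Dpp4 held 7871, 10657, 9704, 8675 and 13270.1 normalized reads in DPP4+ cells at 6 °C, against 137, 46.4, 37.8, 47.1 and 38.7 in DPP4- cells at 6 °C, and its level in DPP4- cells was 0.611% of that in DPP4+ cells at 6 °C and 0.795% at 22 °C. Pdgfrb, the receptor used for isolation, was present in every group and averaged 1505 ± 80.7 normalized reads in DPP4+ cells of cold mice and 2942 ± 226 in those at 22 °C, and 4124 ± 543 in DPP4- cells of cold mice and 4126 ± 333 in those at 22 °C (SD, n = 5). Markers of red blood cells summed to 3.94 to 36.5 normalized reads per library and those of lymphocytes to 10.4 to 81.8. Hba-a1, an adult globin gene, was at 0 in all 20 libraries, and Cd3e, Cd3d, Cd3g, Nkg7 and Ncr1 were at 0 in all 5 libraries of DPP4+ cells at 6 °C. Of the lymphocyte markers only Cd3g was at 0 in all 5 libraries of DPP4+ cells at 22 °C, and none was in either DPP4- group. The 20 libraries held 8.49 to 18.8 M whole reads, where M stands for 1e+06. A normalized read is a read count that the authors divided by 1 factor per library. In bulk samples such as these, fewer dividing cells and less RNA per cell cannot be told apart.

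Promoters of mitosis and replication members shared CCAAT boxes and differed in the share with the other words searched. The proximal 120 bases upstream of the start taken for each promoter are shown for 8 members because they span the patterns described further on. Top2a was far higher in DPP4+ cells and was not called in the cold. Cdk1 and Ube2c were not called in the cold either. These 2 genes passed the filter only through DPP4+ cells, so their higher level in DPP4+ cells is a description. Ccnb2, Rrm1 and Mcm6 fell in the cold in DPP4+ cells, Mcm5 was called in opposite directions in the 2 populations, and Pcna rose in DPP4+ cells. For Mcm5 and Top2a the annotated gene reaches further upstream, to positions 75109468 and 99024199, so part of each of these 2 stretches lies inside the gene. Sequences are from RefSeq on GRCm38.p6, 5′ to 3′ on the strand of the gene, and capitals mark the words searched, given next.
Cdk1: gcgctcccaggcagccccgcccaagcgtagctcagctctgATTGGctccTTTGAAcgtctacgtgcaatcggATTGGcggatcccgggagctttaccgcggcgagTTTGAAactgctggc
Top2a: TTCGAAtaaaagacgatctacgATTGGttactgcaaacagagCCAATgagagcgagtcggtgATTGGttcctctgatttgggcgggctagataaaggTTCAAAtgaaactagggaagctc
Ube2c: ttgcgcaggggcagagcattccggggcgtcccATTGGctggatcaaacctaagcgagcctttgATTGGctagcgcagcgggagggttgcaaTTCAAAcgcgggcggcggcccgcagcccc
Ccnb2: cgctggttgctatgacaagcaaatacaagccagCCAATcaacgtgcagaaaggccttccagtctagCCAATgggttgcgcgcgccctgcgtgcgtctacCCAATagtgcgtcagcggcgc
Rrm1: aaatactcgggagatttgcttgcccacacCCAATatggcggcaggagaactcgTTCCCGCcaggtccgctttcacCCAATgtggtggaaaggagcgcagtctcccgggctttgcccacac
Mcm6: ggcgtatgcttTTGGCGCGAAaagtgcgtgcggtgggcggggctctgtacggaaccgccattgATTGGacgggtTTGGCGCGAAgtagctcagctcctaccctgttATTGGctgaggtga
Mcm5: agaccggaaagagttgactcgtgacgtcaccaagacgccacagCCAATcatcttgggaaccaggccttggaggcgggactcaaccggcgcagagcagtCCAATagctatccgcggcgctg
Pcna: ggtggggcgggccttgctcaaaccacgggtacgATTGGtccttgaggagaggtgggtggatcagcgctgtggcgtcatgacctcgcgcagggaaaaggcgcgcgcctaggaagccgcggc
These stretches lie at chr10:69352913-69353032 (minus strand) for Cdk1, chr11:99024190-99024309 (minus) for Top2a, chr2:164769809-164769928 (plus) for Ube2c, chr9:70421555-70421674 (minus) for Ccnb2, chr7:102441575-102441694 (plus) for Rrm1, chr1:128359706-128359825 (minus) for Mcm6, chr8:75109389-75109508 (plus) for Mcm5 and chr2:132253181-132253300 (minus) for Pcna.

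The words were TTTGAA or TTCGAA for the cell cycle genes homology region (CHR), bound by the MuvB core of the DREAM and B-MYB complexes, CCAAT for the box bound by NF-Y, and, for E2F sites, TTCCCGC or TTCGCGC or TTGGCGC or TTGCCGC. Both strands were searched, so that TTCAAA and also ATTGG in capitals are the same words on the other strand. The E2F words may overlap, as TTGGCGC and GCGCGAA do in each of the 2 long capital runs of Mcm6. In windows of 300 bases, 250 before and 50 after the start, which were given for 37 of the 46 members, a CHR word was found in 14 of 19 mitosis members (73.7%), 3 of 13 replication members (23.1%) and 0 of 5 G1/S members, against 13.6% of 10029 genes tested. A CCAAT box was found in 84.2% of mitosis members, 69.2% of replication members and 1 of 5 G1/S members, against 38.9% of genes tested. An E2F word was found in 15.8% of mitosis members, 61.5% of replication members and 1 of 5 G1/S members, against 17.3% of genes tested. In the stretches printed here, Cdk1 and Top2a each hold 2 CHR words and Ube2c 1, while Rrm1 and Mcm6 hold E2F words and no CHR word. The other 3 go the other way: the stretch of Ccnb2 holds no CHR word, and those of Mcm5 and Pcna no E2F word. The windows of 300 bases hold a CHR word for Ccnb2 and an E2F word for Mcm5, but no E2F word for Pcna. A match is a description of the letters in these windows, not of binding.

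**Figure D1:**
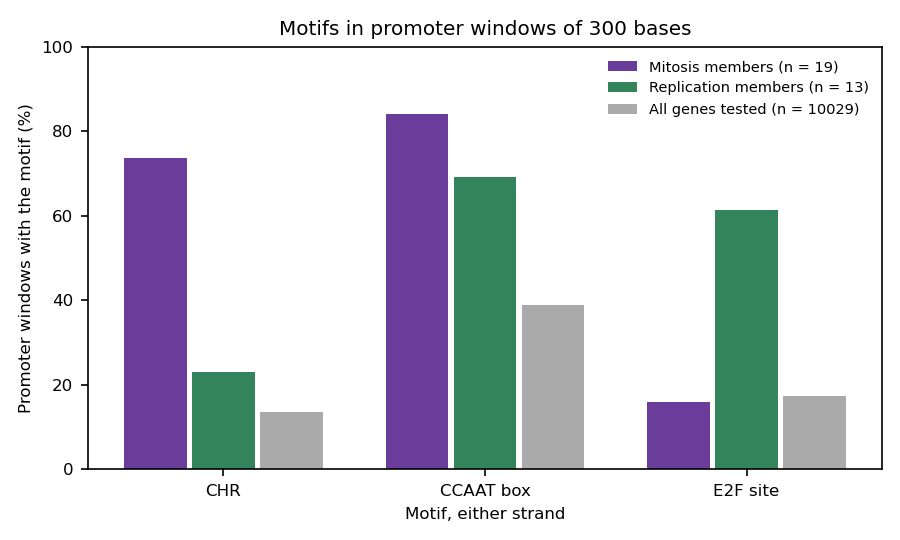
Share of promoter windows of 300 bases, in percent, that hold a CHR, CCAAT or E2F word on either strand, for mitosis members (19), replication members (13) and all genes tested that have a window (10029). CHR words stood highest in mitosis members (73.7%) and E2F words in replication members (61.5%).

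Most of these cell cycle genes were more abundant in DPP4+ cells than in DPP4- cells at both temperatures, least so the G1/S members and most so the mitosis members. At 6 °C, 41 of the 46 members were higher in DPP4+ cells and 2 were lower at an adjusted p under 0.05 (limma on log2(normalized reads + 1), Benjamini-Hochberg over all genes tested), which is the meaning of "called" throughout. At 22 °C, 44 were higher and 1 was lower. Of all genes tested, 74.2% were called at 6 °C (38.5% higher and 35.7% lower) and 74.9% at 22 °C (38.7% higher and 36.2% lower). The groups of 5 libraries did not overlap for 39 members at 6 °C, all higher in DPP4+ cells, where this held for 57.1% of all genes (29.8% higher and 27.4% lower). At 22 °C they did not overlap for 43 members that were higher and 1 that was lower, against 64.8% of all genes (33.4% higher and 31.4% lower). The median log2 difference at 22 °C was 0.83 over G1/S members, 1.72 over replication members and 4.84 over mitosis members, against 0.03 over all genes tested. At 6 °C these medians were 0.75, 1.09 and 4.04, against 0.03. The 7 mitosis genes that passed the filter only through DPP4+ cells had to differ in this comparison and support nothing here. Of the other 39 members, DPP4+ cells held more of 34 and less of 2 at 6 °C, and more of 37 and less of 1 at 22 °C, by the same test. The groups did not overlap, in either direction, for 32 of these 39 at 6 °C and 37 at 22 °C. The mitosis medians above include the 7, and without them were 3.72 at 6 °C and 4.67 at 22 °C.

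**Figure D2:**
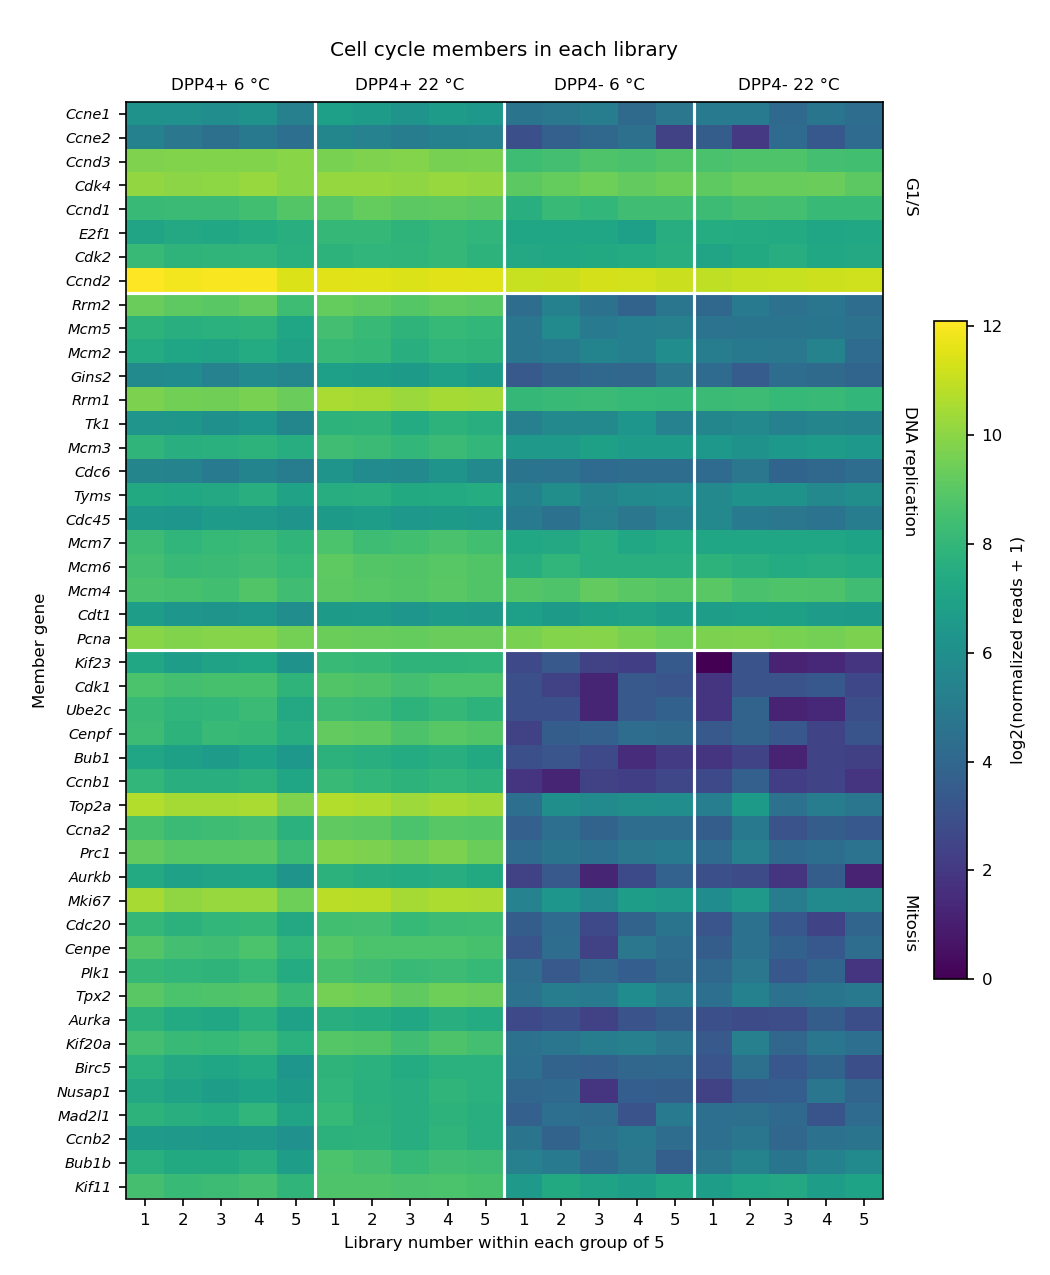
Level of each of the 46 members in each of the 20 libraries as log2(normalized reads + 1), by class and within a class from the largest to the smallest difference between DPP4+ and DPP4- cells at 22 °C. The mitosis block is brighter in all 10 DPP4+ libraries than in all 10 DPP4- libraries, while Ccnd2 and Pcna are bright in all 20.

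The 16 mitosis members with a mean of at least 10 also over DPP4- libraries were all called higher in DPP4+ cells at both temperatures, with no overlap between groups and median log2 differences of 3.72 at 6 °C and 4.67 at 22 °C. Over all 23, the level in DPP4- cells had a median of 5.51% of that in DPP4+ cells at 6 °C and 3.61% at 22 °C. These 2 medians include the 7 that passed the filter only through DPP4+ cells and are a description. Top2a, the topoisomerase that untangles sister chromatids, held 1666, 1531, 1295, 1433 and 1315 normalized reads in DPP4+ cells at 22 °C, against 35.1, 96.1, 21.4, 33.8 and 25.7 in DPP4- cells at 22 °C. Every DPP4+ library exceeded every DPP4- library by a wide margin, and the log2 difference was 5.27 ± 0.35 (SE; adjusted p = 1.63e-10, limma). Among the 7 that passed the filter only through DPP4+ cells, whose values are a description, Cdk1, the kinase that starts mitosis, held 449, 413, 360.4, 401 and 407 normalized reads in DPP4+ cells at 22 °C, against 2.70, 7.51, 7.56, 9.21 and 5.14 in DPP4- cells at 22 °C. Ube2c, the ubiquitin-conjugating enzyme of the anaphase-promoting complex, held 309, 287, 223, 264 and 224 normalized reads in DPP4+ cells, against 2.70, 13.5, 1.26, 1.54 and 6.43 in DPP4- cells at 22 °C. Kif23, a kinesin of the central spindle and another of the 7, averaged 251 ± 25.6 normalized reads in DPP4+ cells and 2.57 ± 2.91 in DPP4- cells at 22 °C (SD, n = 5). These DPP4- values rest on few reads: over the 5 libraries at 22 °C a mitosis member had between 9 whole reads (Kif23) and 466 (Kif11), so the size of such differences is loosely fixed.

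Kif11, the motor that pushes spindle poles apart, was the mitosis member with the smallest difference. It held 435, 439, 391, 402 and 384 normalized reads in DPP4+ cells, against 108, 139.6, 154, 109 and 129 in DPP4- cells at 22 °C, a log2 difference of 1.69 ± 0.14 (adjusted p = 1.35e-10), and its level in DPP4- cells was 31.2% of that in DPP4+ cells. Mki67, which codes for the proliferation antigen Ki-67, averaged 1607 ± 181 normalized reads in DPP4+ cells and 56.9 ± 20.6 in DPP4- cells at 22 °C. Among the others of these 16 the log2 difference at 22 °C lay between 3.19 (Bub1b) and 5.72 (Cenpf).

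Of the 15 replication members, 12 were higher in DPP4+ cells at 6 °C and 13 at 22 °C, with a wide spread. Rrm2, the regulated subunit of ribonucleotide reductase, stood apart from its partner: it held 603, 550.1, 471, 536 and 515 normalized reads in DPP4+ cells at 22 °C, against 16.2, 30.0, 21.4, 26.1 and 19.3 in DPP4- cells at 22 °C. Rrm1, the large subunit, held 1484, 1423, 1234, 1428 and 1347 normalized reads in DPP4+ cells, against 299.8, 308, 273, 295 and 259.8 in DPP4- cells. The groups did not overlap for either gene, and the log2 differences were 4.53 ± 0.22 for Rrm2 (adjusted p = 4.15e-14) and 2.26 ± 0.07 for Rrm1 (adjusted p = 1.89e-18). Within the MCM2-7 helicase, whose subunits act as 1 ring, the differences at 22 °C were uneven: 3.51 for Mcm5, 3.03 for Mcm2, 1.74 for Mcm3, 1.41 for Mcm7, 1.33 for Mcm6 and 0.23 for Mcm4, the last with overlapping groups and not called by edgeR or DESeq2.

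Pcna, Cdt1 and Mcm4 were the replication members lower in DPP4+ cells or not called at 1 of the temperatures. Pcna, the sliding clamp of DNA polymerases, held 668, 614, 606, 649 and 632 normalized reads in DPP4+ cells, against 835, 863, 797, 743 and 835 in DPP4- cells at 22 °C, so that all DPP4+ libraries lay below all DPP4- libraries (log2 difference -0.36 ± 0.08, adjusted p = 0.000232). Cdt1, the licensing factor that loads MCM rings, was lower in DPP4+ cells at 6 °C (-0.47 ± 0.12, adjusted p = 0.00136) and was -0.18 at 22 °C (adjusted p = 0.176). Mcm4 was lower in DPP4+ cells at 6 °C (-0.36 ± 0.10, adjusted p = 0.00223), with 1 DPP4+ library inside the DPP4- range. The directions of Pcna and Cdt1 at 22 °C and of Mcm4 at 6 °C depend on scaling. With the total of every library set equal, the median difference over all genes became 0.64 at 22 °C and 0.50 at 6 °C, instead of 0.03. The differences became 0.25 for Pcna and 0.42 for Cdt1 at 22 °C and 0.10 for Mcm4 at 6 °C. Relative to that shift these 3 differences stayed below the median gene. The lower call of Cdt1 at 6 °C was lost under that scaling, with its sign kept.

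The G1/S members differed least between the populations. At 22 °C all 8 were higher in DPP4+ cells, with log2 differences from 0.42 (Ccnd2) to 1.94 (Ccne1), the E cyclin that activates Cdk2. Ccnd3, a D cyclin, held 807, 855, 906, 792 and 817 normalized reads in DPP4+ cells, against 386, 434, 427, 356 and 348 in DPP4- cells at 22 °C, with no overlap. Cdk4, the kinase partner of D cyclins, averaged 1140.5 ± 52.3 normalized reads in DPP4+ cells and 590.4 ± 51.4 in DPP4- cells. At 6 °C the difference was not called for Ccnd1 (0.28 ± 0.13, adjusted p = 0.067) or E2f1 (0.18 ± 0.11, adjusted p = 0.157), whose groups overlapped. The DPP4- level of a G1/S member had a median of 59.3% of the DPP4+ level at 6 °C and 56.4% at 22 °C.

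At both temperatures some markers of other cells were also called between the populations. Calls were common among all genes tested, with 74.2% called at 6 °C and 74.9% at 22 °C. The marker counts given here are to be read against these shares, and a called marker does not by itself set such cells apart. The summed pericyte and smooth muscle markers were 4292 to 7172 normalized reads in DPP4+ cells, against 5124 to 6849.5 in DPP4- cells at 6 °C, and 9396 to 12170 in DPP4+ cells, against 4220 to 5686 in DPP4- cells at 22 °C, and of 12 markers 4 were higher and 5 lower at 6 °C and 4 higher and 6 lower at 22 °C. The summed endothelial markers were 3628 to 5156 in DPP4+ cells, against 2387 to 2991 in DPP4- cells at 6 °C, and 3610.5 to 4257 in DPP4+ cells, against 2648 to 3149 in DPP4- cells at 22 °C, while 6 of 10 tested were lower in DPP4+ cells at each temperature. The summed adipocyte markers were 1313 to 2257 in DPP4+ cells, against 7537 to 12363 in DPP4- cells at 6 °C, and 2778 to 3727 in DPP4+ cells, against 3119 to 6855 in DPP4- cells at 22 °C. These sums do not stand for the single markers. Of 8 adipocyte markers tested, 2 were higher in DPP4+ cells and 3 lower at 6 °C, and 6 higher and 1 lower at 22 °C. The part of these cells in the differences between populations was not tested.

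**Figure D3:**
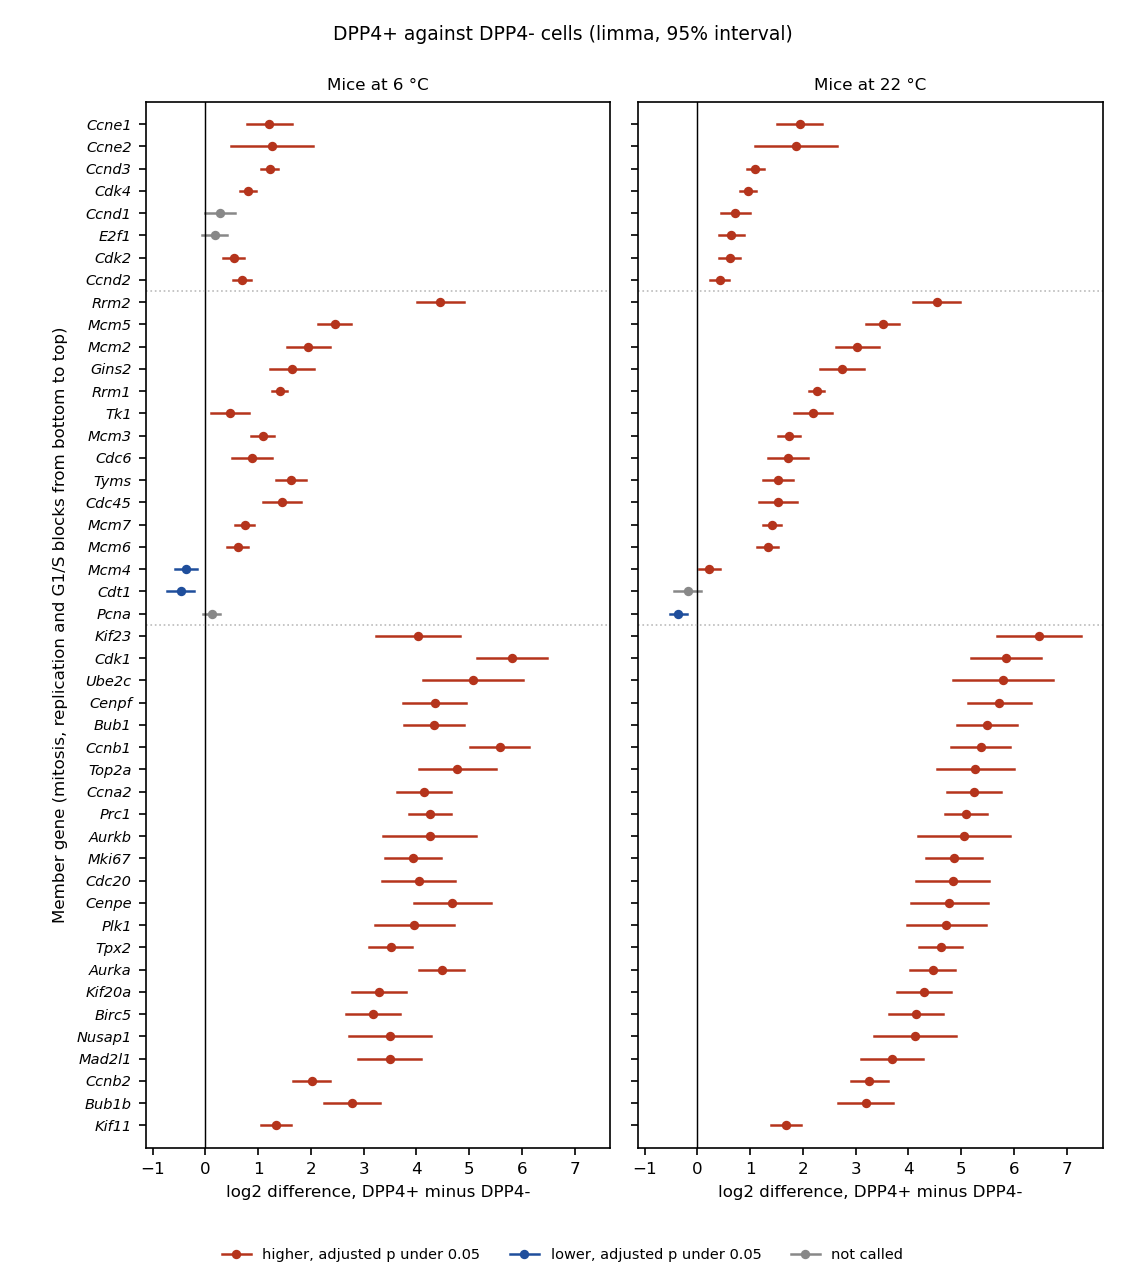
Log2 difference of DPP4+ minus DPP4- cells for each member at 6 °C and at 22 °C, with 95% intervals (limma). At 22 °C the points of G1/S members lie between 0.42 and 1.94 and those of the 16 mitosis members with enough reads in DPP4- cells between 1.69 and 5.72, and Pcna, Cdt1 and Mcm4 lie around 0.

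In DPP4+ cells, 22 of the 46 members fell and 2 rose after 24 h at 6 °C, where 46.1% of all genes tested were called (22.6% lower and 23.5% higher). The members' median log2 difference was -0.50, against 0.01 over all genes tested. Lower calls numbered 3 of 8 among G1/S members, 10 of 15 among replication members and 9 of 23 among mitosis members. The groups did not overlap for 24 members that were lower and 1 that was higher at 6 °C, against 38.4% of all genes (19.0% lower and 19.4% higher). The 22 lower calls were lower calls also in edgeR and DESeq2 on the recovered whole reads. Those tools added the same 7 mitosis members (Aurkb, Birc5, Cdc20, Kif20a, Mki67, Nusap1 and Plk1), which makes 16 of 23. With 1 library left out, replicate 5 of DPP4+ cells at 6 °C, the limma count fell to 18 members, 5 of them in mitosis.

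Of the replication members 10 fell, 1 rose and 4 were not called. Tk1, the thymidine kinase that salvages thymidine, changed most of all members: it held 76.8, 83.5, 66.99, 80.2 and 46.4 normalized reads in DPP4+ cells at 6 °C, against 221, 229, 170.1, 227 and 189.8 in DPP4+ cells at 22 °C. The highest cold library lay below the lowest library at 22 °C, and the log2 difference was -1.56 ± 0.18 (adjusted p = 1.03e-07). Rrm1 held 827, 740.3, 701, 796 and 648 normalized reads at 6 °C, against 1484, 1423, 1234, 1428 and 1347 at 22 °C, again with no overlap (-0.90 ± 0.07, adjusted p = 1.85e-10). Gins2, a subunit of the GINS complex that joins the MCM ring at the fork, held 51.7, 57.9, 39.8, 55.4 and 47.1 normalized reads at 6 °C, against 113, 110.0, 95.5, 122 and 101 at 22 °C (-1.09 ± 0.20, adjusted p = 9.86e-05). All 6 MCM2-7 genes fell, from -0.73 for Mcm2 to -0.36 for Mcm4, and so did Cdc6 (-0.68 ± 0.18, adjusted p = 0.00361), which helps to load them.

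Pcna was the replication member that rose: it held 967, 894, 956, 954 and 748 normalized reads in DPP4+ cells at 6 °C, against 668, 614, 606, 649 and 632 in DPP4+ cells at 22 °C. Every cold library was above every library at 22 °C, and the log2 difference was 0.51 ± 0.08 (adjusted p = 1.13e-05). The replication members not called were Rrm2 (-0.08 ± 0.22, 95% interval -0.53 to 0.37), Cdc45 (-0.11 ± 0.18, -0.47 to 0.26), Tyms (-0.18 ± 0.14, -0.47 to 0.11) and Cdt1 (-0.22 ± 0.12, -0.47 to 0.03). Tyms codes for thymidylate synthase, which makes the same nucleotide as Tk1 from scratch, and Cdc45 for a part of the moving helicase.

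Of the mitosis members, Ccnb2, a B cyclin, changed most. It held 100.05, 91.4, 87.4, 90.4 and 68.1 normalized reads in DPP4+ cells at 6 °C, against 215, 225, 185, 237 and 193 in DPP4+ cells at 22 °C, with no overlap (-1.27 ± 0.17, adjusted p = 1.31e-06). Kif23 held 147, 107, 125, 142 and 70.3 normalized reads at 6 °C, against 291, 261, 234, 229.9 and 238 at 22 °C (-1.12 ± 0.38, adjusted p = 0.0211), with no overlap. Bub1b, a kinase-like protein of the spindle checkpoint, held 206, 164, 162, 189 and 108 normalized reads at 6 °C, against 403, 354, 274, 336 and 313 at 22 °C (-1.03 ± 0.25, adjusted p = 0.00207). Cenpf, a protein of the outer kinetochore, fell by a similar amount (-0.98 ± 0.29, adjusted p = 0.00826), and the lower calls also held Ccna2, Bub1, Prc1, Tpx2 and Kif11, between -0.73 and -0.40. Without replicate 5 of DPP4+ cells at 6 °C, 4 mitosis members, Ccna2, Bub1, Kif11 and Kif23, were no longer called.

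Other mitosis members were not called. The fit gives each gene a single variance over all groups, so the SEs and intervals here also hold the spread of DPP4- libraries, where reads were few. For Top2a the SE was 0.35 in either population. With each population fitted alone, a fit chosen after seeing the data, 16 mitosis members were lower in DPP4+ cells instead of 9. Of the members named next, only Mki67 was called lower in that fit. Aurka, the aurora kinase of spindle poles, held 216, 168, 153, 205 and 118 normalized reads in DPP4+ cells at 6 °C, against 196, 179, 149.8, 191 and 172 in DPP4+ cells at 22 °C, with cold libraries both above and below the range at 22 °C (-0.07 ± 0.21, 95% interval -0.50 to 0.35). Top2a held 1677, 1415, 1430.2, 1518 and 874 normalized reads at 6 °C, against 1666, 1531, 1295, 1433 and 1315 at 22 °C, and its highest library was a cold one (-0.09 ± 0.35, -0.83 to 0.64). Cdk1 was -0.24, Ube2c -0.09, Ccnb1 -0.32, Cenpe, a kinesin of the kinetochore, -0.22 and Mad2l1, a spindle checkpoint protein, -0.16, none of them called by limma, edgeR or DESeq2. Mki67 held 1442, 1099, 1178, 1183 and 688 normalized reads at 6 °C, against 1844, 1741, 1397, 1540.2 and 1514 at 22 °C, with 1 cold library inside the range at 22 °C. Its log2 difference was -0.56 ± 0.25 (adjusted p = 0.0825 in limma, which missed the threshold that edgeR and DESeq2 passed).

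Among G1/S members the D cyclins parted. Ccnd1 held 279, 302, 306, 343 and 456 normalized reads in DPP4+ cells at 6 °C, against 494, 597, 519.6, 552 and 502 in DPP4+ cells at 22 °C, with no overlap (-0.68 ± 0.13, adjusted p = 0.000281). Ccnd2 held 4355, 3763, 3969, 3995 and 2814 normalized reads at 6 °C, against 2949, 2924, 2789.8, 3028 and 2875 at 22 °C, so that 4 of 5 cold libraries lay above all at 22 °C and the other inside their range (0.36 ± 0.09, adjusted p = 0.00136). Ccnd3, 0.11, was not called. E2f1, an activator of S phase genes, held 135, 158, 149.5, 171 and 198 normalized reads at 6 °C, against 266, 265, 229, 261 and 248 at 22 °C (-0.65 ± 0.11, adjusted p = 3.92e-05), and no libraries overlapped. Ccne1 fell as well (-0.64 ± 0.20, adjusted p = 0.0127), while Cdk2 and Cdk4 were 0.01 and -0.10 and not called. The calls of Ccnd2 and Ccne1 were lost under quantile normalization.

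**Figure D4:**
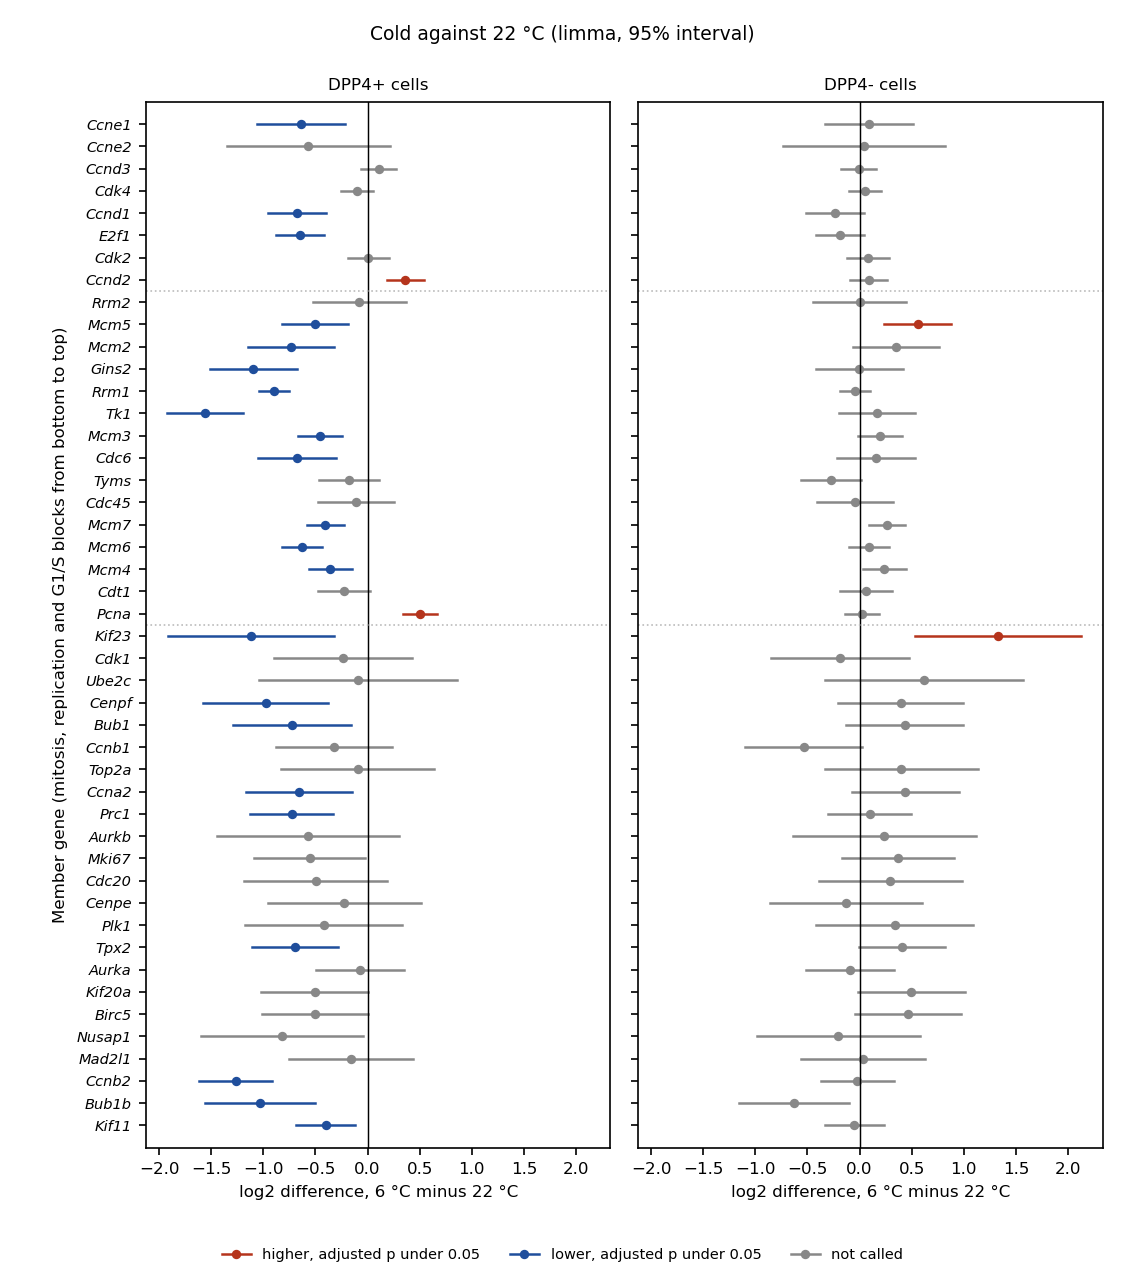
Log2 difference of 6 °C minus 22 °C for each member in DPP4+ cells and in DPP4- cells, with 95% intervals (limma). In DPP4+ cells 22 intervals are marked lower and 2 higher (Ccnd2 and Pcna), and in DPP4- cells 2 are marked higher (Mcm5 and Kif23).

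Members that work as partners differed in their change, which ratios within a library show without regard to scaling. These pairs were chosen after their values were seen, and the ratios carry no test and do not compare the levels of the 2 genes, whose lengths differ. The ratio of Rrm1 to Rrm2 was 1.30, 1.36, 1.397, 1.37 and 1.99 in DPP4+ cells at 6 °C, against 2.46, 2.59, 2.62, 2.66 and 2.61 in DPP4+ cells at 22 °C. The ratio of Ccnb2 to Ccnb1 was 0.389 to 0.497 at 6 °C, against 0.754 to 0.927 at 22 °C, and that of Bub1b to Mad2l1 was 0.763 to 0.905 at 6 °C, against 1.49 to 1.63 at 22 °C. The ratios of these 3 pairs did not overlap between temperatures, including the library that was lowest for single genes. Likewise, Tk1 to Tyms was 0.373 to 0.559 at 6 °C, against 1.04 to 1.36 at 22 °C, and Mcm6 to Pcna was 0.314 to 0.371 at 6 °C, against 0.701 to 0.815 at 22 °C. Ccnd1 to Ccnd2 was 0.0642 to 0.162 at 6 °C, against 0.167 to 0.204 at 22 °C, apart by a narrow margin. In DPP4- cells all 6 ratios overlapped between temperatures.

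**Figure D5:**
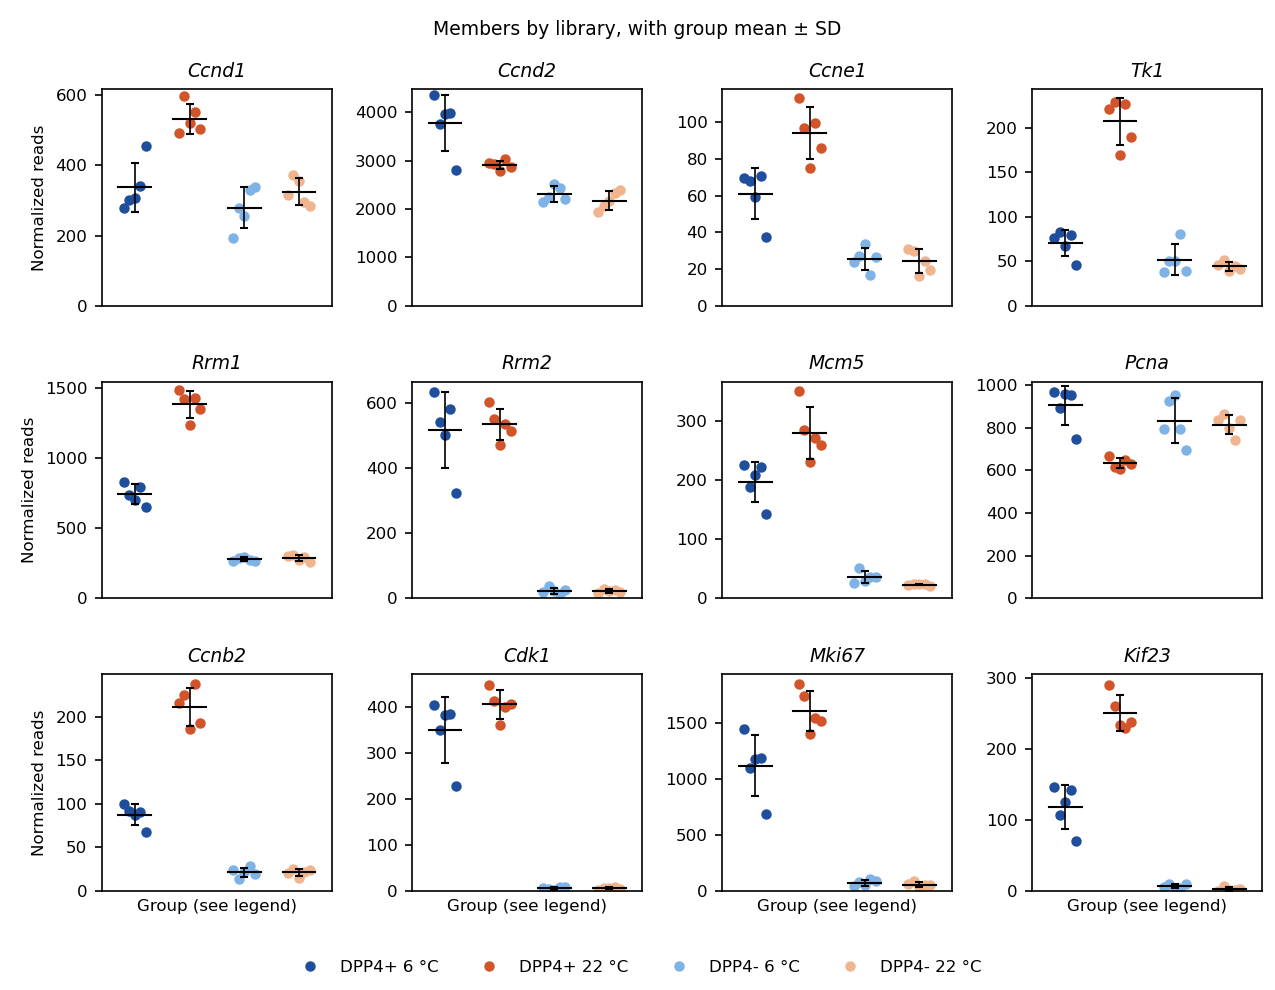
Normalized reads of 12 members in each library, with bars at the group mean ± SD (n = 5) and each vertical axis from 0. Tk1, Rrm1 and Ccnb2 are lower in every DPP4+ library at 6 °C than at 22 °C, Pcna is higher in every one, and Rrm2 and Cdk1 overlap.

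In DPP4+ cells the libraries of a group kept much of a common order over the mitosis members. In DPP4- cells at 6 °C no library was the highest for more than 8 of the 23. Replicate 5 of DPP4+ cells at 6 °C was the lowest of its 5 libraries for all 23 mitosis members and for 13 of 15 replication members, where it was the lowest for 36.4% of all genes tested. Replicate 1 was the highest of its group for 20 of 23 mitosis members in DPP4+ cells at 6 °C and, in a separate library whose relation to the first the labels do not state, for 20 of 23 in DPP4+ cells at 22 °C, against 28.8% and 28.1% of all genes. The summed level of the mitosis members was 4942 to 9108 normalized reads in DPP4+ cells at 6 °C, against 8996 to 11727 in DPP4+ cells at 22 °C, with a small overlap. The ratio of the group means of this sum was 0.726, and 0.787 without replicate 5. For replication members it was 0.767, and 0.802 without that library, and for G1/S members, where Ccnd2 makes up most of the sum, it was 1.09 and 1.12.

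Some markers of other cells were also called in DPP4+ cells in the cold. Of all genes tested, 46.1% were called there (23.5% higher and 22.6% lower). The summed level of 12 pericyte and smooth muscle markers was 4292 to 7172 normalized reads in DPP4+ cells at 6 °C, against 9396 to 12170 at 22 °C, and 2 of the 12 were called higher and 5 lower. That of 10 adipocyte markers was 1313 to 2257 at 6 °C, against 2778 to 3727 at 22 °C, with 2 of 8 tested called lower. Myeloid markers summed to 183 to 273 at 6 °C, against 174 to 206 at 22 °C, and 1 of 5 tested was called higher. Endothelial markers summed to 3628 to 5156 at 6 °C, against 3610.5 to 4257 at 22 °C, with 2 of 10 tested called higher and 1 lower. Of 6 Schwann cell markers tested 2 were called lower. The part of these cells in the results was not tested.

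Few members were called between the temperatures in DPP4- cells. Of 46, 2 were called higher and 0 lower, where 5.22% of all genes tested were called (1.98% higher and 3.23% lower). An unadjusted p under 0.05 was found for 5 of the 46 members, and for 2680 of all 13057 genes tested. The median log2 difference was 0.05 over G1/S, 0.09 over replication and 0.29 over mitosis members, against 8.9e-05 over all genes tested. Mcm5 held 25.5, 51.8, 29.7, 35.8 and 37.0 normalized reads in DPP4- cells at 6 °C, against 23.0, 24.0, 23.9, 24.6 and 21.9 in DPP4- cells at 22 °C, with no overlap (0.56 ± 0.15, adjusted p = 0.036). Mcm7, not called (0.26 ± 0.09, adjusted p = 0.0692), was also higher in every cold library, so that groups were apart for 2 members, where this held for 4.87% of all genes (1.65% higher and 3.22% lower). Kif23 held 5.36, 9.54, 4.05, 3.76 and 9.88 normalized reads at 6 °C, against 0, 7.51, 1.26, 1.54 and 2.57 at 22 °C, which overlapped and rest on a handful of reads (1.33 ± 0.38, adjusted p = 0.0456). Neither call was made by edgeR or DESeq2, in which 0 members were called, and limma made 0 calls when any 1 of 6 DPP4- libraries was left out (replicates 2 and 5 at 6 °C and 1, 3, 4 and 5 at 22 °C).

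For the other members in DPP4- cells the precision went with the number of reads. Rrm1, with many reads, averaged 279 ± 14.5 normalized reads in DPP4- cells at 6 °C and 287 ± 19.9 at 22 °C (SD, n = 5), a log2 difference of -0.04 with a 95% interval of -0.18 to 0.10. Pcna averaged 832 ± 106 and Ccnd2 2310.4 ± 159.7 at 6 °C, against 815 ± 46.3 for Pcna and 2177 ± 186 for Ccnd2 at 22 °C. Top2a held 20.1, 64.1, 54.0, 62.1 and 60.1 normalized reads at 6 °C, against 35.1, 96.1, 21.4, 33.8 and 25.7 at 22 °C, and its interval ran from -0.33 to 1.13. The summed mitosis level was 410 to 633 normalized reads at 6 °C, against 409 to 731 at 22 °C, where replicate 2 was the highest for 16 of 23 members. The summed adipocyte markers were 7537 to 12363 at 6 °C, against 3119 to 6855 at 22 °C, and their part was not tested.

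The cold effect differed between the populations for 21 members by the test of the difference itself, with 20 lower and 1 higher in DPP4+ cells, where 33.2% of all genes tested were called (16.4% lower and 16.8% higher). This comparison shares its libraries with those in each population. It held 10 of 15 replication members, 9 of 23 mitosis members and E2f1 on the lower side. Tk1 had a difference of -1.73 ± 0.25 (adjusted p = 8.52e-06), made of -1.56 in DPP4+ cells and 0.17 in DPP4- cells. Rrm1 had -0.86 ± 0.10 (adjusted p = 3.29e-07), of -0.90 in DPP4+ cells and -0.04 in DPP4- cells. Mcm5 had -1.06 ± 0.22 (adjusted p = 0.000612), of -0.50 in DPP4+ cells and 0.56 in DPP4- cells, and all 6 MCM2-7 genes were called in the same direction. Kif23 was listed at -2.45, of -1.12 in DPP4+ cells and 1.33 in DPP4- cells, where it had few reads. Pcna was the member on the higher side (0.48 ± 0.11, adjusted p = 0.00162). On the whole reads, edgeR called 16 lower, 5 of them in mitosis, and DESeq2 20, 8 of them in mitosis. Birc5 and Bub1 were called by neither, and Ccna2 and Prc1 not by edgeR.

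In the wider cell cycle machinery, 198 of 200 further genes in 8 lists were tested. In DPP4+ cells at 6 °C against 22 °C, 10 rose (5.05%) and 89 fell (44.9%), with a median of -0.38, where 23.5% of all genes tested rose and 22.6% fell. In DPP4- cells 3 rose (1.52%) and 2 fell (1.01%), which is no more than the 1.98% and 3.23% of all genes.

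Among origin and fork proteins, 28 of 50 fell and 3 rose in DPP4+ cells at 6 °C, that is 56.0% and 6.00%, against 22.6% and 23.5% of all genes. Lig1, the ligase that joins Okazaki fragments, held 151, 113, 129, 147 and 118 normalized reads in DPP4+ cells at 6 °C, against 356, 327, 285, 318 and 302 at 22 °C, with no overlap (-1.27 ± 0.13, adjusted p = 3.08e-08). Chaf1b, a subunit of the chromatin assembly factor that follows the fork, was -1.16 ± 0.21 (adjusted p = 9.9e-05). Pole, the catalytic subunit of the leading strand polymerase, was -1.07 ± 0.20 (adjusted p = 8.92e-05). In DPP4- cells 0 of the 50 were called in limma, where 5.22% of all genes were. Of the 50, 6 had an unadjusted p under 0.05, against 2680 of all 13057 genes tested.

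Of the E2F, RB and DREAM genes, 6 of 18 fell (33.3%) and 2 rose (11.1%) in DPP4+ cells at 6 °C, against 22.6% and 23.5% of all genes, so that the lower share was not far from that of all genes. Foxm1, the activator of G2 and mitosis genes, held 250.1, 183, 213, 217 and 149.6 normalized reads in DPP4+ cells at 6 °C, against 404, 396, 302, 357 and 330.1 at 22 °C, with no overlap (-0.83 ± 0.17, adjusted p = 0.000307). E2f8, a repressor of the E2F family, was -1.37 ± 0.40 (adjusted p = 0.00726). Rbl1, the pocket protein p107, moved in opposite directions: it held 169.9, 173, 177, 167 and 193 normalized reads in DPP4+ cells at 6 °C, against 302, 297, 250.4, 252 and 252 at 22 °C, and 117, 127, 142, 151 and 124 in DPP4- cells at 6 °C, against 89.1, 119, 80.6, 93.6 and 84.9 at 22 °C. Both changes were called (-0.62 ± 0.10 in DPP4+ cells, adjusted p = 1.95e-05, and 0.50 ± 0.10 in DPP4- cells, adjusted p = 0.00453), and so was their difference (-1.12 ± 0.14, adjusted p = 1.33e-06).

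Of 8 genes named as inhibitors of cyclin-dependent kinases, 5 fell (62.5%) and 0 rose in DPP4+ cells at 6 °C, against 22.6% and 23.5% of all genes. The 5 include Cdkn3 (-1.45 ± 0.29, adjusted p = 0.000253), and a shared name does not make the 8 alike in what they do. Cdkn2b, the inhibitor p15 of Cdk4 and Cdk6, held 41.4, 23.0, 24.3, 21.3 and 16.5 normalized reads in DPP4+ cells at 6 °C, against 105, 108, 104, 94.6 and 93.1 at 22 °C, with no overlap (-2.02 ± 0.30, adjusted p = 8.1e-06). Cdkn2c, the related inhibitor p18, held 70.7, 78.9, 71.8, 72.5 and 75.5 at 6 °C, against 142, 149, 129.5, 153 and 135 at 22 °C (-0.93 ± 0.15, adjusted p = 2.74e-05). Cdkn1b, p27, was -0.20 ± 0.07 (adjusted p = 0.0128), and Cdkn1a, p21, and Cdkn1c, p57, were -0.14 and -0.19 and not called. Between the populations, 7 of the 8 were higher in DPP4+ cells and 1 lower at 22 °C, and 6 were higher and 2 lower at 6 °C. Of all genes, 38.7% were higher and 36.2% lower at 22 °C, and 38.5% higher and 35.7% lower at 6 °C. Cdkn1a was the inhibitor lower in DPP4+ cells at 22 °C: it held 2039.6, 2267, 2243, 2234 and 2351 normalized reads in DPP4+ cells at 22 °C, against 5179, 4543, 4614, 3641 and 4559 in DPP4- cells (-1.01 ± 0.09, adjusted p = 1.63e-10). Between the temperatures it fell in DPP4- cells (-0.37 ± 0.09, adjusted p = 0.0118).

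In the remaining lists the share that fell in DPP4+ cells at 6 °C is to be read against 22.6% of all genes, and the share that rose against 23.5%. Lower calls numbered 17 of 31 spindle and cytokinesis genes (54.8%) with 0 higher, 7 of 17 genes of the anaphase-promoting complex (41.2%) with 2 higher and 15 of 39 kinetochore and centromere genes (38.5%) with 1 higher. They numbered 5 of 15 other cyclins and kinase subunits (33.3%) with 0 higher and 6 of 20 cohesin, condensin and separase genes (30.0%) with 2 higher, shares nearer to that of all genes. Anln, the scaffold of the cleavage furrow, was -1.14 ± 0.20 (adjusted p = 0.000112). Zwint, a kinetochore protein, went the other way: it held 1483, 1299.8, 1319, 1381 and 995 normalized reads in DPP4+ cells at 6 °C, against 655, 626, 661, 660.2 and 644 at 22 °C, with no overlap (0.98 ± 0.08, adjusted p = 9.95e-10). In DPP4- cells it was -0.15 (adjusted p = 0.33). Anapc15, a small subunit of the anaphase-promoting complex, fell in DPP4+ cells (-0.48 ± 0.15, adjusted p = 0.00941) and rose in DPP4- cells (0.89 ± 0.15, adjusted p = 0.000848).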

How the data were processed

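The deposited signal, 1 table for all 20 libraries, holds gene counts that the authors scaled with a single factor for each library. Per the submitters' processing notes the tools include DESeq2 1.6.3, featureCounts 1.4.6, HISAT2 2.0.1 and Trim Galore 0.4.1, and the builds GRCm38 and mm10, without their roles. Which gene models and which strand setting were used for counting is not given in the sources used here, so reads of a gene and of an overlapping or antisense neighbour may be mixed. All values (100%) were whole multiples of 1 step per library (tolerance 0.1 read), which gave back whole reads. Their totals in M (1e+06 reads) were 14.2 ± 2.47 for DPP4+ cells of cold mice, 16.5 ± 0.783 for DPP4+ cells of mice at 22 °C, 12.5 ± 3.78 for DPP4- cells of cold mice and 12.3 ± 1.10 for DPP4- cells of mice at 22 °C (SD, n = 5). Rows without a symbol, 958, took 0.0610 to 0.0824% of reads.

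Genes with a mean of at least 10, 13057, were fitted on log2(value + 1) with limma 3.58.1 in R 4.3.3 (4 group means, 16 residual degrees of freedom, moderated variance with trend and robust options), with 5 contrasts, two-sided p-values adjusted by Benjamini-Hochberg over all genes and a threshold of 0.05. Log2 differences on this scale understate changes of low genes. Each gene has a single variance over the 4 groups, so its SE in DPP4+ cells also holds the spread of the DPP4- libraries. The fit was tested on simulated data. Alternatives were the pseudocounts 0.5 and 5, other filters, totals set equal, quantile normalization, edgeR 4.0.16 and DESeq2 1.42.0 on whole reads, a replicate block and each library left out. Fits of each population alone and with library weights were chosen after seeing the data. No values were left out. All 46 members could be named. Of each further list, the rule allowed up to 3 genes per contrast with the largest absolute log2 difference among those called and with a mean of at least 50 in the higher group, plus Dpp4, Pdgfrb, Pdgfra, Cdkn1a, Cdkn1b and Cdkn1c. Hba-a1 and the other blood markers at 0 were named as markers. The members and lists were chosen with earlier results of these data known. Promoter windows are RefSeq's, on GRCm38.p6.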

Additional observations from a re-analysis of the deposited data

Results flagged for a closer look

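Within groups of 5 libraries, 1 library stood far from the other 4 in 6 of 184 groups examined (46 members in 4 groups), where chance gives about 1 in 20. In DPP4+ cells at 6 °C, Ccnd3 was 980 normalized reads in replicate 5, the next being 889. In DPP4- cells at 6 °C, Mcm6 was 248 in replicate 2 (next 197) and Top2a was 20.1 in replicate 1 (next 54.0). In DPP4- cells at 22 °C, replicate 2 was far above the others for Top2a, at 96.1 (next 35.1), and for Ccna2, at 28.5 (next 10.8). In the same group Aurka was 10.7 in replicate 4 (next 6.75).

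The cold effect differed between DPP4+ and DPP4- cells, by the test of the difference, for 21 members. The log2 difference of the effects was -2.45 for Kif23, -1.73 for Tk1, -1.37 for Cenpf, -1.25 for Ccnb2 and -1.16 for Bub1. Kif23 and Bub1 had means under 10 normalized reads in DPP4- cells, so their values rest on few reads. The difference was -1.10 for Ccna2, -1.10 for Tpx2, -1.09 for Gins2, -1.08 for Mcm2, -1.06 for Mcm5 and -1.01 for Kif20a. It was -0.97 for Birc5, -0.86 for Rrm1, -0.84 for Cdc6, -0.83 for Prc1, -0.72 for Mcm6 and -0.67 for Mcm7. The smallest were -0.65 for Mcm3, -0.59 for Mcm4 and -0.47 for E2f1, and that of Pcna was 0.48. In DPP4- cells the effects of these members lay between -0.18 (E2f1) and 1.33 (Kif23).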

How the results depend on the processing

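The count of members lowered by cold in DPP4+ cells, 22, was 29 in edgeR, 30 in DESeq2, 30 with each population fitted alone and 27 with library weights. With single libraries left out it was 18 to 24, lowest without replicate 5 of DPP4+ cells at 6 °C, and mitosis members were then 5, against 16 in edgeR, in DESeq2 and with each population alone. The 2 raised were 1 under quantile normalization. In DPP4- cells the 2 raised were 1 with a pseudocount of 0.5 or 5 or a mean of at least 1, and 0 without a filter, in edgeR, in DESeq2, with each population alone and with library weights. They were 0 to 2 with a library left out, 0 in 6 of those cases (without replicates 2 and 5 at 6 °C and 1, 3, 4 and 5 at 22 °C, all DPP4-). For the difference of the effects, 18 to 22 were lower and 1 to 2 higher with a library left out, with 2 higher under library weights and without replicate 5 of DPP4+ cells at 6 °C. Between populations, members lower in DPP4+ cells at 22 °C (1) were 0 with totals set equal and 2 under quantile normalization, and at 6 °C (2) were 0 with totals set equal. The same scaling gave Cdt1 0.42 (adjusted p = 0.00693) and Pcna 0.25 (0.0106) at 22 °C and Mcm4 0.10 (0.4) at 6 °C. Of all calls under that scaling, 81.7% were higher in DPP4+ cells at 22 °C, against 51.6% as deposited, and 77.0% against 51.9% at 6 °C. Of the cold calls, 42.0% against 51.0% were higher in DPP4+ cells, 80.1% against 38.0% in DPP4- cells and 26.9% against 50.6% for the difference of the effects. The cause of these changes was not tested. Whether equal replicate numbers mark shared animals or days is not stated in the labels. The numbers were not taken as pairs for that reason. Over all pairs of groups, correlations of libraries with the same number ran from -0.228 to 0.267. Both ends were pairs across the temperatures, which say nothing on animals shared by the 2 populations. Between the populations at 1 temperature 10 of 10 correlations were positive (0.0166 to 0.156, 4 of them over 0.1). At 6 °C 4 of 5 libraries and at 22 °C 2 of 5 correlated best with their own number, a hint from the data. With a replicate block, 22 members were lower in DPP4+ cells in the cold and 21 for the difference of the effects (22 with the block within temperature), and 42 were higher in DPP4+ cells at 6 °C and 44 at 22 °C with either block. Few reads of mitosis members in DPP4- cells limit every comparison with that group.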
